A study of Saccharomyces cerevisiae with 9 samples.

Results

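Internal transcribed spacer 2 (ITS 2) is the stretch of the yeast 35S pre-rRNA between 5.8S and 25S rRNA, and RNA 3′ ends in it were followed through 3 subphases of logarithmic growth. Its members here were the 202 single-nucleotide positions from 3020 to 3221 of the 6858 positions of the 35S repeat, chosen by their region annotation in the deposited tables, with the 30 nt next to 25S left out. On chromosome XII of the R64 build of Saccharomyces cerevisiae they lie at chrXII:464349-464550 on the minus strand. The annotation there is ITS2-2 (464319 to 464550), a non-coding transcribed spacer that lies between RDN58-2, the 5.8S gene (464551 to 464708), and RDN25-2, the 25S gene (460923 to 464318). R64 holds a second copy, ITS2-1 (455182 to 455413), with the identical sequence, so that reads cannot be assigned to either copy. Positions are given both by their number in the repeat and by their nucleotide of ITS 2, counted from nt 1 directly after 5.8S.

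Native elongating transcript sequencing (NET-seq) was done on yeast harvested in early, mid and late log phase, which the study set apart by rising culture density, with 3 biological replicates each. All cultures were of 1 wild-type MATa strain carrying ade2-1, ura3-1, trp1-1 and also leu2-3,112, his3-11 and can1-100, in which the polymerase subunit Rpa135 bore the tag RPA135-(HA)3-(His)7::TRP1, grown in rich medium (YPD) at 30 °C. RNA polymerase I (Pol I), which transcribes the 35S repeat, was pulled down by this tag together with its RNA, and the base at the 3′ end of each RNA was mapped. Values are reads per 1000000 (RPM) of a library's reads on the repeat, so that a value is a share of these reads and says nothing of the amount of Pol I per cell.

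ITS 2 keeps 5.8S and 25S joined in the 27S pre-rRNA until the endonuclease Las1, acting with the kinase Grc3, cuts it at the C2 site. The upstream product, 7S pre-rRNA, is trimmed from its 3′ end by the exosome to a 5.8S with a short tail and then, through Rrp6 and further exonucleases, to 6S and to mature 5.8S, while Rat1 trims the downstream product to the start of 25S. Ends of such intermediates and ends of RNA inside an elongating polymerase are both read as 3′ ends in NET-seq, and in ITS 2 they cannot be told apart. The tables mark no processing site inside ITS 2. From general knowledge of yeast pre-rRNA, nt 1 to 8 were taken as the extension kept in 6S, nt 30 as the end of the 5.8S+30 intermediate, and C2 as 94 nt before 25S, between nt 138 and nt 139, with a window of 10 nt to each side (nt 129 to 148, positions 3148 to 3167).

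The sequence of the members is shown because the peaks below are read on it. Capitals mark the 6S extension at the 5′ end and, further down, the C2 window.
ITS 2, nt 1 to 202: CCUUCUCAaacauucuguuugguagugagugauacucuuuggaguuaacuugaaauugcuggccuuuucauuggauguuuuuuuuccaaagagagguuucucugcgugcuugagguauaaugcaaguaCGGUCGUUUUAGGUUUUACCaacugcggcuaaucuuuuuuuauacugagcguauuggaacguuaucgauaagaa

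Of these 202 bases 79 were U (39.1%), 46 A, 45 G and 32 C. The 6S extension consisted of 4 C, 3 U and 1 A, with no G.

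The libraries held from 350940.0 reads on the repeat (early log replicate 3) to 7307420.5 (mid log replicate 2), of which 3396 to 57375 fell in ITS 2. Where a library counted 0, as many as 3 reads remain possible, or 0.411 RPM at the greatest depth and 8.55 RPM at the smallest. Of the sequencing runs, called a, b and c here, run a held early log replicates 2 and 3, run b the mid log triplicate, and run c the late log triplicate together with early log replicate 1. Mid log and run b therefore cannot be told apart, and early and late log can be compared within a run only through early log replicate 1. Mid log replicate 1 stood apart from the other mid log libraries in ITS 2. It was higher than both of them at 199 of the 201 positions with any reads. It lay within or above the range of the early log libraries at 180 positions. The share of ITS 2 as a whole and the counts of calls with mid log are therefore given with and without it. The same holds for the peaks that its removal moved past the threshold, while the other mid log means include it.

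The share of ITS 2 among all reads on the repeat was smaller in late than in early log. ITS 2 took 0.756%, 0.908% and 0.968% of the reads in early log replicates 1, 2 and 3, with 95% Wilson intervals from 0.743% to 0.769%, from 0.899% to 0.917% and from 0.936% to 1.00%. It took 0.946%, 0.410% and 0.395% in the mid log replicates and 0.353%, 0.378% and 0.346% in the late log replicates, where the intervals spanned at most 0.337% to 0.387%. Late log thus lay below early log with no overlap, while mid log replicate 1 lay inside the early log range and the other two mid log libraries lay between early and late log. The intervals cover counting error only and were narrower than the spread between early log replicates. Late log (0.359% ± 0.0165, SD, n = 3) stood 1.28 log2 units below early log (0.877% ± 0.109), and within run c the difference was -1.07. Mid log (0.584% ± 0.314) differed from early log by -0.70, or by -1.11 without mid log replicate 1. Late log differed from mid log by -0.58, and by -0.17 without that library. No test was run on these sums. Most repeat reads lay in the gene regions, where the paper describes mature rRNA that cannot be separated from nascent RNA. The 4 spacers together held 4.30%, 8.03% and 7.19% of the reads in the early log replicates. They held 5.93%, 3.65% and 3.31% in mid log and 2.54%, 3.07% and 2.46% in late log. Shares and RPM therefore also depend on the amount of mature rRNA, whose part in the changes was not tested. As a share of the reads in the 4 spacers, ITS 2 took 17.6%, 11.3% and 13.5% in the early log replicates, 15.9%, 11.3% and 11.9% in the mid log replicates and 13.9%, 12.3% and 14.1% in the late log replicates, against 13.4% of the spacer positions, and all 3 subphases overlapped.

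**Figure D1:**
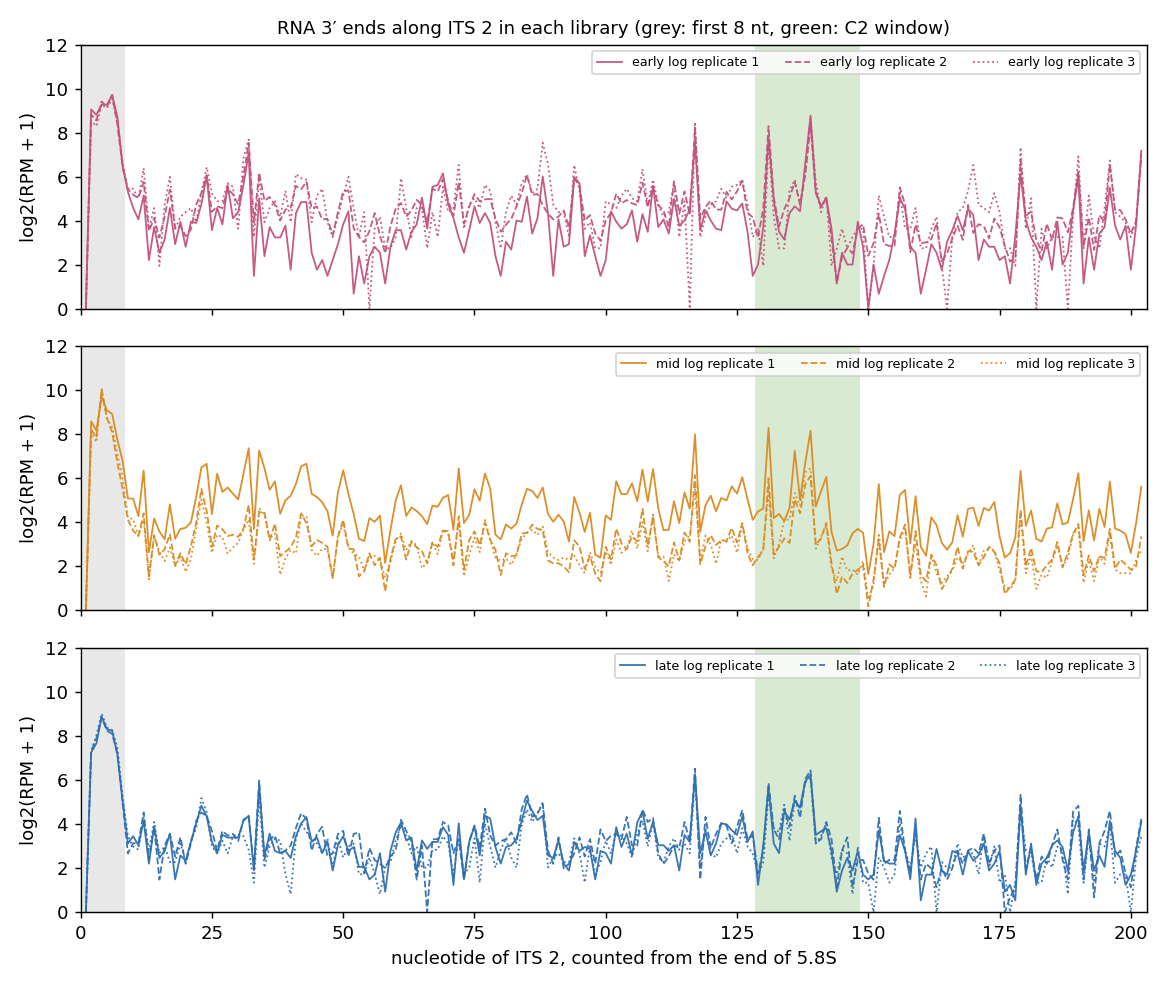
RNA 3′ ends along ITS 2, with the nucleotide of ITS 2 on the x axis and log2(RPM + 1) on the y axis, 1 panel per subphase and 1 line per library. The positions from nt 2 to nt 7 stand high in each library, nt 117, 131 and 139 rise above their surroundings in all 3 subphases, and mid log replicate 1 is above mid log replicates 2 and 3 at 199 positions.

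The reads were concentrated in a few positions. The 6S extension, 3.96% of the positions, held 38.5% ± 7.83, 50.4% ± 17.3 and 46.9% ± 4.68 of the ITS 2 reads in early, mid and late log (SD, n = 3). Its level was 415 ± 30.7, 322 ± 31.7 and 210 ± 13.1 RPM per nt in early, mid and late log. Between nt 9 and nt 30 the level was 26.9 ± 6.71, 18.4 ± 14.0 and 10.03 ± 0.233 RPM per nt. In the middle stretch (nt 31 to 128) it was 28.9 ± 9.37, 17.6 ± 16.6 and 10.1 ± 1.73 RPM per nt, and in the C2 window 50.6 ± 1.54, 31.3 ± 24.6 and 18.6 ± 1.26 RPM per nt. The last stretch (nt 149 to 202) was the lowest in each subphase, with 18.7 ± 5.22, 9.38 ± 8.46 and 6.09 ± 1.04 RPM per nt.

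In each of these 5 stretches late log did not overlap early log and was the lower. The log2 difference of late log from early log was -0.98 in the 6S extension, -1.39 in nt 9 to 30, -1.47 in the middle stretch, -1.45 in the C2 window and -1.59 after it. Within run c, against early log replicate 1 alone, these differences were -1.08, -0.997, -0.89, -1.45 and -1.15. The C2 window and the 6S extension thus kept their distance within the run, and the other 3 stretches were closer. Whether the stretches differed from each other in their change was not tested.

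The 6S extension was the only one of the 5 stretches in which mid log replicate 1 lay below the early log range. It took 0.356%, 0.334% and 0.307% of all repeat reads in the early log replicates, 0.287%, 0.245% and 0.242% in the mid log replicates and 0.162%, 0.161% and 0.180% in the late log replicates, and no pair of subphases overlapped. In the middle stretch the mid log libraries took 0.360%, 0.0831% and 0.0738%, against 0.182%, 0.308% and 0.361% in early log. Mid log replicates 2 and 3 had 59.7% and 61.1% of their ITS 2 reads in the 6S extension and mid log replicate 1 had 30.4%, against 47.1%, 36.8% and 31.7% in the early log replicates.

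**Figure D2:**
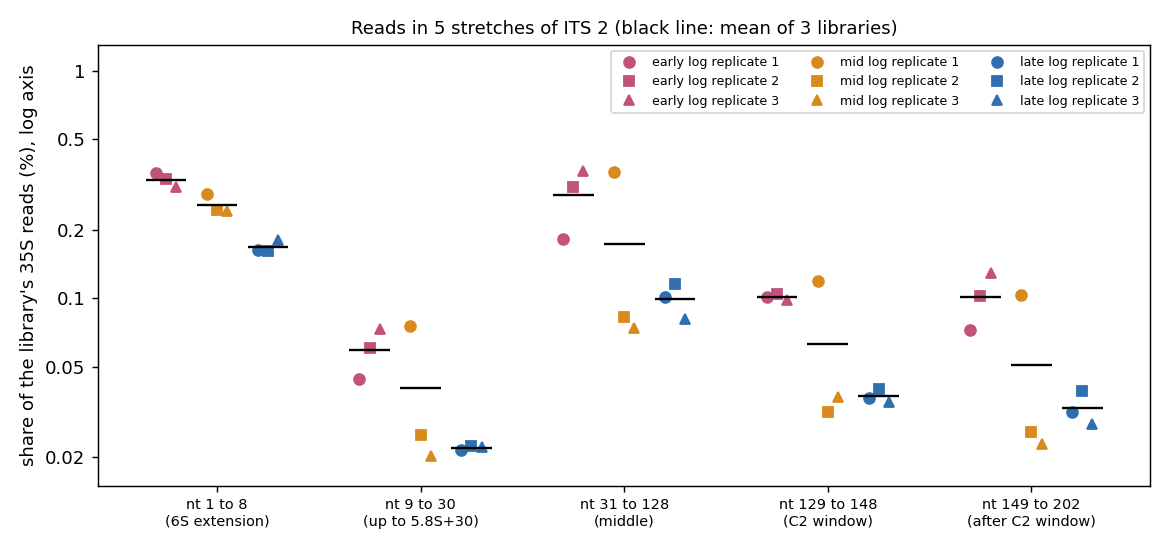
Share of each library's 35S reads (percent, log axis) in 5 stretches of ITS 2, with 1 symbol per library, early to late log from left to right, and a black line at the mean of 3 libraries. In the 6S extension the 3 subphases do not overlap, and in the other stretches mid log replicate 1 lies within or above the early log range.

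The highest position near the end of 5.8S was not the same in all subphases. The sequences around both of these positions are shown with the 3′ end base in capitals, 10 nt to each side.
Position 3023 (nt 4, chrXII:464537-464557, minus strand): gucauuuccuUcucaaacauu
Position 3025 (nt 6, chrXII:464535-464555, minus strand): cauuuccuucUcaaacauucu

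Position 3025, a U at nt 6, was the highest member in all 3 early log libraries, and position 3023, a U at nt 4, was the highest in all 6 mid and late log libraries. Position 3025 had 839, 841 and 741 RPM in early log, 488, 274 and 319 RPM in mid log and 304, 274 and 310 RPM in late log. It was lower in each later library than in any early log library. It fell in late log against early log, with a log2 change of -1.45 ± 0.167 (SE, limma, adjusted p = 0.000191), and in mid log against early log by 1.20 (adjusted p = 0.0167). Late and mid log overlapped here, and their log2 difference was -0.24 (adjusted p = 0.364).

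Position 3023 had 618, 681 and 624 RPM in early log, 838, 1064 and 999 RPM in mid log and 472, 459 and 523 RPM in late log. Here mid log was the highest subphase and late log the lowest, and no 2 subphases overlapped. Only the difference of late log from mid log passed the test, at -0.99 ± 0.128 (adjusted p = 0.000470), and with libraries scaled to the spacer sum it was -0.36 and did not pass. Late log differed from early log by -0.40 (adjusted p = 0.0721) and mid log from early log by 0.59 (adjusted p = 0.0689), which was 0.69 without mid log replicate 1 (adjusted p = 0.0502).

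The ratio of position 3023 to position 3025 was 0.737, 0.810 and 0.842 in the early log replicates, 1.72, 3.88 and 3.13 in the mid log replicates and 1.56, 1.68 and 1.69 in the late log replicates. It was under 1 in each early log library and over 1 in each mid and late log library, mid log replicate 1 included. The ratio does not depend on how libraries are scaled. Early log replicate 1, in the same run as the late log libraries, had the lowest ratio. This pair of positions was chosen after their values were seen, so the ratio is given with no test.

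The other positions of the 6S extension declined with growth at different steps. Position 3021 (C, nt 2) had 532, 453 and 371 RPM in early log, 385, 300 and 274 RPM in mid log and 152, 158 and 157 RPM in late log, and the late log libraries lay below all others. It fell by 1.51 in late log against early log (adjusted p = 0.000208) and by 1.02 in late log against mid log (adjusted p = 0.000450). Position 3026 (C, nt 7) had 418, 329 and 368 RPM in early log, 215, 104 and 136 RPM in mid log and 142, 148 and 178 RPM in late log. Its decline thus lay between early log and the later subphases, with a log2 change of -1.34 in mid log (adjusted p = 0.0167) and of -1.25 in late log (adjusted p = 0.000511), each against early log. Late log overlapped mid log at position 3026, and without mid log replicate 1 it was higher by 0.38 (adjusted p = 0.0438). With libraries scaled to the spacer sum, the late over early log calls at positions 3021, 3025 and 3026 were lost (log2 differences -0.29, -0.22 and -0.02). The mid over early log calls at positions 3025 and 3026 were each lost in 4 of 16 alternatives, among them leaving out mid log replicate 2 or 3.

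Position 3022 (U, nt 3) had 448, 375 and 314 RPM in early log, 289, 231 and 200 RPM in mid log and 204, 238 and 260 RPM in late log, with late log overlapping mid log. Position 3024 (C, nt 5) had 615, 576 and 553 RPM in early log, 546, 431 and 423 RPM in mid log and 319, 305 and 335 RPM in late log. Both fell in late log against early log, by 0.69 (adjusted p = 0.0140) and by 0.86 (adjusted p = 0.00216). The call at position 3022 was lost with a median log ratio of 0 (-0.28), in edgeR (-0.32) and DESeq2 (-0.32), and without late log replicate 1. That at position 3024 was lost with a median log ratio of 0 (-0.46) and in edgeR (-0.47). With libraries scaled to the spacer sum both changes reversed. The levels were lower at the end of the extension. Position 3027 (A, nt 8), its last nucleotide, had 88.7, 84.4 and 96.9 RPM in early log, 109.6, 44.6 and 64.6 RPM in mid log and 32.2, 30.5 and 37.0 RPM in late log, and it fell in late log by 1.41 against early log (adjusted p = 0.000809) and by 1.02 against mid log (adjusted p = 0.0221). Position 3028 (A, nt 9), the first beyond the extension, had 38.6, 42.3 and 42.8 RPM in early log, 33.1, 16.4 and 17.5 RPM in mid log and 7.71, 5.39 and 10.01 RPM in late log. It fell in late log against both early log (log2 change -2.31, adjusted p = 0.000617) and mid log (-1.39, adjusted p = 0.0192). The late over mid log call at position 3028 was lost without late log replicate 1 or 2 and with libraries scaled to the spacer sum.

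Position 3020 (C, nt 1) was listed at 0 in all 9 libraries, as were the last 2 positions of 5.8S beside it. Whether no RNA ended there or the values had been taken out was not tested, and this member was in no test. The 5.8S position before them, 3017, had a mean of 1678 RPM over the 9 libraries.

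**Figure D3:**
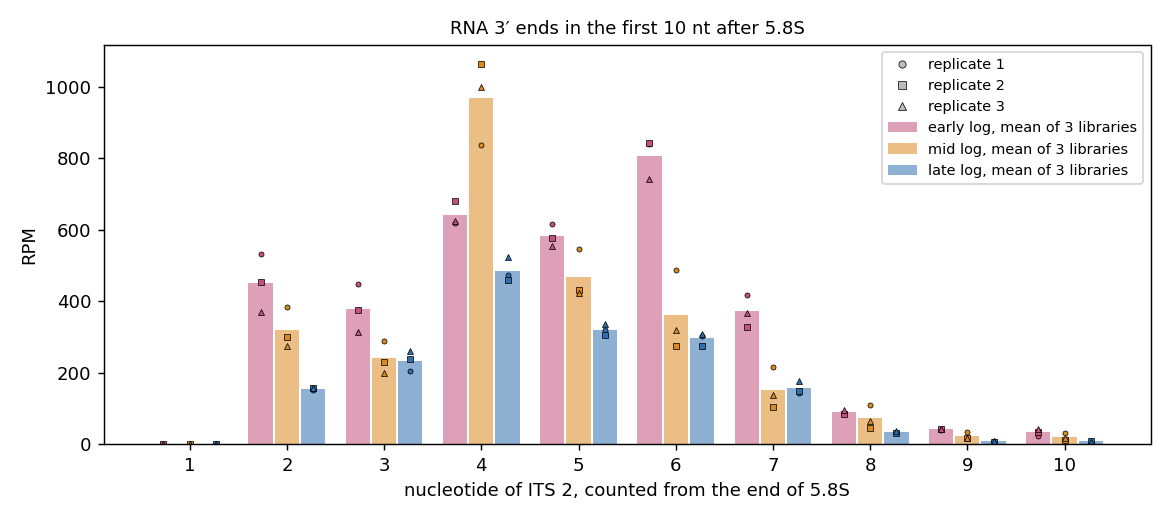
RPM at each of the first 10 nt of ITS 2, with bars at the mean of 3 libraries and symbols for the libraries, early to late log from left to right at each nucleotide. The tallest bar stands at nt 6 in early log (807 RPM) and at nt 4 in mid log (967 RPM) and late log (485 RPM), and the values drop beyond nt 7.

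Peaks were defined as positions that were the highest within 5 nt to each side in the mean of a subphase and at least 4 times above the median ITS 2 position in that mean and in each of its 3 libraries. Only members were compared, so position 3221, the last member, was set against its upstream neighbours alone. By this rule early log had 7 peaks, mid log 4 and late log 5, and 9 positions were a peak in any subphase. Positions 3136, 3150 and 3158 were peaks in all 3 subphases. Positions 3051, 3198 and 3221, with 3025, were peaks in early log alone, position 3053 in late log alone and position 3023 in mid and late log. Positions 3023 and 3025 lie within 5 nt, so only the higher could be a peak. In the means of early, mid and late log, position 3025 was 44.3, 31.4 and 39.8 times the median. Position 3023 was 35.2, 84.4 and 65.3 times the median. Position 3198 lay near the threshold later on, with 6.11, 3.58 and 4.08 times, and position 3051 had 9.59, 6.06 and 2.06 times. Of the 9 positions, 5 were A, 2 G, 2 U and none C. The 3 shared peaks are shown with 10 nt to each side and the 3′ end base in capitals.
Position 3136 (nt 117, chrXII:464424-464444, minus strand): ugcuugagguAuaaugcaagu
Position 3150 (nt 131, chrXII:464410-464430, minus strand): ugcaaguacgGucguuuuagg
Position 3158 (nt 139, chrXII:464402-464422, minus strand): cggucguuuuAgguuuuacca

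Position 3158, the A at nt 139 beside the assumed C2 cut, was the highest position outside the 6S extension, with a mean of 204 RPM over the 9 libraries. It had 436, 327 and 402 RPM in early log, 287, 68.6 and 86.7 RPM in mid log and 74.8, 86.2 and 67.0 RPM in late log. All early log libraries were above all others, and mid log replicate 1 lay between them and the rest. The log2 change was -2.34 ± 0.184 in late log against early log (adjusted p = 3.7e-05) and -1.68 ± 0.469 in mid log against early log (adjusted p = 0.0407). The change in mid log was -2.31 without mid log replicate 1 (adjusted p = 0.000716), but the call was lost in 8 of 16 alternatives, which were edgeR, both other scalings, and leaving out any early log library or mid log replicate 2 or 3. Late log differed from mid log by -0.65 (adjusted p = 0.285).

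The U directly before it, position 3157 (nt 138), was named after its values were seen. It had 96.5, 66.6 and 68.4 RPM in early log, 104, 52.1 and 76.6 RPM in mid log and 60.7, 65.3 and 58.5 RPM in late log, and its log2 difference of late log from early log was -0.30 (adjusted p = 0.280). Position 3158 thus stood 4.52, 4.91 and 5.88 times above position 3157 in the early log replicates, 2.75, 1.31 and 1.13 times in mid log and 1.23, 1.32 and 1.14 times in late log. The early log ratios lay above all others, also within run c. Position 3158 held 38.4% ± 6.19, 23.0% ± 1.21 and 20.4% ± 1.23 of the reads in the C2 window in early, mid and late log, and position 3157 held 7.62% ± 1.65, 15.3% ± 6.07 and 16.6% ± 0.189 (SD, n = 3). These ratios, too, are a description with no test.

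Position 3150, a G at nt 131, was the second peak of the window. It had 225, 312 and 191 RPM in early log, 313, 63.2 and 42.2 RPM in mid log and 50.8, 57.5 and 38.5 RPM in late log. Late log was below all early log libraries, with a log2 change of -2.28 ± 0.237 (adjusted p = 0.000112). Mid log spanned both, because mid log replicate 1 was above each early log library, and its log2 difference from early log was -1.32 (adjusted p = 0.170), or -2.18 without that library (adjusted p = 0.00188).

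Position 3153, a G at nt 134 between both peaks, was the 1 member of ITS 2 called higher in late log. It had 23.1, 25.2 and 28.5 RPM in late log, against 7.84, 22.1 and 5.70 RPM in early log, and 15.7, 8.62 and 16.1 RPM in mid log. Early log replicate 2 came close to the lowest late log library, and the value of early log replicate 3 rested on 2 reads. The log2 change was 1.25 ± 0.465 over early log (adjusted p = 0.0468) and 0.92 ± 0.314 over mid log (adjusted p = 0.0434), and each of these calls was lost when any 1 late log library was left out. In the C2 window as a whole, 7 of 20 positions (35%) fell and 1 (5%) rose in late log against early log, and over the whole repeat 35.7% fell and 12.5% rose, so that the share that fell was near the background. The U positions 3155 and 3156 (nt 136 and 137) overlapped between early and late log, with log2 differences of -0.26 and -0.04.

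**Figure D4:**
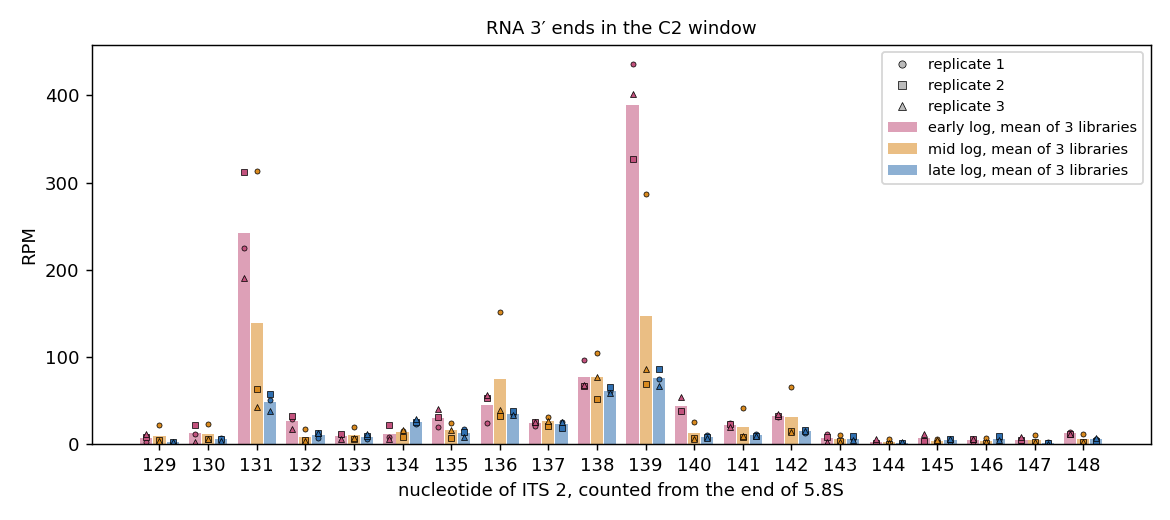
RPM at each nucleotide of the C2 window (nt 129 to 148), with bars at the mean of 3 libraries and symbols for the libraries, early to late log from left to right at each nucleotide. Early log stands highest at nt 139 (mean of 388 RPM) and nt 131 (243 RPM), while nt 138 is similar in the 3 subphases (77.2, 77.6 and 61.5 RPM).

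Upstream of the C2 window, position 3136 (A, nt 117) was the highest position of the middle stretch. It had 187, 301 and 356 RPM in early log, 255, 69.8 and 44.3 RPM in mid log and 76.2, 91.0 and 66.2 RPM in late log. It fell in late log against early log, with a log2 change of -1.80 ± 0.249 (adjusted p = 0.000483), which was -1.27 with the sequencing run as a term in the fit (adjusted p = 0.000968) and -0.58, past no threshold, with libraries scaled to the spacer sum. Mid log differed from early log by -1.54 (adjusted p = 0.0921), and by -2.27 without mid log replicate 1 (adjusted p = 0.00234).

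At nt 32 and nt 34, directly beyond the end of the 5.8S+30 intermediate, the leading position also changed between subphases. Both positions are an A, and their surroundings are shown with that base in capitals.
Position 3051 (nt 32, chrXII:464509-464529, minus strand): guagugagugAuacucuuugg
Position 3053 (nt 34, chrXII:464507-464527, minus strand): agugagugauAcucuuuggag

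Position 3051 had 134, 185 and 205 RPM in early log, 165, 26.8 and 16.6 RPM in mid log and 19.9, 19.8 and 6.16 RPM in late log. Its log2 change of -3.57 ± 0.405 in late log against early log was the steepest in ITS 2 (adjusted p = 0.000172). Mid log differed from early log there by -1.999 (adjusted p = 0.0856), and by -2.97 without mid log replicate 1 (adjusted p = 0.000821). Position 3053 had 31.4, 72.0 and 59.9 RPM in early log, 153, 20.8 and 24.1 RPM in mid log and 53.5, 62.3 and 36.2 RPM in late log, and late log overlapped early log (log2 difference -0.05, adjusted p = 0.910). Position 3051 was thus above position 3053 in all early log libraries and below it in all late log libraries. Next to them, position 3054 (C, nt 35) had 4.99, 4.19 and 3.08 RPM in late log, against 87.4, 21.3 and 19.5 RPM in mid log, a fall of 2.77 on the log2 scale (adjusted p = 0.00378). In early log it had 4.22, 29.0 and 14.3 RPM, a range that included the value of 1 late log library.

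Other positions of the middle stretch that moved most were low. Position 3113 (nt 94) had 62.1, 59.5 and 91.2 RPM in early log, 34.6, 8.07 and 4.59 RPM in mid log and 8.16, 5.39 and 9.24 RPM in late log. It fell by 3.07 in late log (adjusted p = 0.000129) and by 2.54 in mid log (adjusted p = 0.0308), each against early log, and the change in mid log was -3.31 without mid log replicate 1. Its neighbour 3114 ranged over 39.9 to 50.7 RPM in early log, and over 3.20 to 20.8 RPM in mid and 5.39 to 9.58 RPM in late log, and fell by 2.59 and by 2.40 in late and mid log (adjusted p = 0.000360 and 0.0293). The calls of mid over early log were lost in 6 of 16 alternatives at position 3113 and in 7 of 16 at position 3114. Among these were, at both, edgeR, the replicate number as a block, and leaving out mid log replicate 2 or 3. Position 3043 (nt 24), the highest of nt 9 to 30, fell by 1.75 in late log against early log (adjusted p = 0.000560), with a mean of 20.5 ± 1.57 RPM in late log and 72.1 ± 11.7 RPM in early log.

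Downstream of the C2 window, position 3198 (G, nt 179) was the highest of its stretch by the mean over all libraries. It had 68.8, 105 and 160 RPM in early log, 80.3, 22.7 and 19.9 RPM in mid log and 28.1, 39.5 and 23.1 RPM in late log, and fell in late log against early log (log2 change -1.80, adjusted p = 0.00201). This call was lost with libraries scaled to the spacer sum (-0.59). Mid log differed from early log by -1.63 (adjusted p = 0.0680), and by -2.25 without mid log replicate 1 (adjusted p = 0.00371). Position 3221 (A, nt 202), the last member before the 30 nt that were left out, changed more. It had 144, 131 and 117 RPM in early log, 48.3, 9.31 and 5.57 RPM in mid log and 16.3, 18.0 and 10.01 RPM in late log. All mid and late log libraries lay below the early log range. It fell by 3.10 in late log (adjusted p = 5.2e-05) and by 3.13 in mid log (adjusted p = 0.0200), each against early log. The call in mid log was lost in 4 of 16 alternatives, without early log replicate 2 or 3 or mid log replicate 2 or 3. Without mid log replicate 1 the change in mid log was -3.995, and late log was higher than mid log by 0.90 (adjusted p = 0.0283). Position 3176 (nt 157) had 5.89, 5.99 and 6.16 RPM in late log, against 43.5, 14.0 and 12.1 RPM in mid log, and fell by 1.55 (adjusted p = 0.0306). This call was lost in 6 of 16 alternatives, among them leaving out any 1 late log library or mid log replicate 2.

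Over all 201 tested members, late log had 86 lower and 1 higher position than early log at an adjusted p under 0.05 (limma on log2(RPM + 1), fitted and adjusted over the whole repeat). The 86 made up 42.8% of the members, against a background of 35.7% of all tested positions of the repeat that were called lower, and the 1 higher position 0.498%, against 12.5% called higher. The median log2 change of the members was -1.15 and that of all tested positions -0.44. The early and late log libraries did not overlap at 109 members that were lower in late log (54.2%, background 42.5%) and at 1 that was higher (0.498%, background 15.7%). With libraries scaled to a median log ratio of 0, 52 members (25.9%) were lower and 1 was higher, and over the repeat 19.1% were lower and 22.2% higher. With libraries scaled to the sum of the spacers 19 members (9.45%) were lower and 12 (5.97%) higher, and over the repeat 5.66% were lower and 46% higher. With the run as a term 41 (20.4%) were lower and 5 (2.49%) higher, and over the repeat 26.1% and 15.3%.

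By stretch, late log against early log had 6 of 7 tested positions lower in the 6S extension, 9 of 22 (40.9%) between nt 9 and nt 30, 43 of 98 (43.9%) in the middle stretch, 7 of 20 (35%) in the C2 window and 21 of 54 (38.9%) after it. The background was 35.7% lower over the repeat, so that the shares beyond nt 8 lay near it or little above it. The exception in the 6S extension was position 3023.

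In mid log 8 of the 201 members were lower than in early log and none was higher, or 3.98%, against backgrounds of 12.7% lower and 6.48% higher. They were positions 3025, 3026, 3088, 3113, 3114, 3158, 3159 and 3221. The median log2 change was -0.75 over the members and -0.27 over all tested positions, and 35 members had an unadjusted p under 0.05. The libraries of mid and early log did not overlap at 21 members that were lower (10.4%, background 26.4%) and 1 that was higher (0.498%, background 14.3%). This count rested on mid log replicate 1: without it 70 of 200 members (35%) were lower and none higher, against 22% of the repeat lower and 6.54% higher in that fit, and the median was -1.31. The share called lower was thus below that of the repeat with this library and above it without. Without mid log replicate 2 or mid log replicate 3, 0 members passed in limma, with 10 and 9 at an unadjusted p under 0.05. Over the repeat these fits called 0% and 0.0296% of positions lower and 0.0444% and 0.118% higher, so calls were lost across the repeat and not in ITS 2 alone.

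Late log against mid log gave 7 lower members (3.48%, background 22.2%) and 1 higher (0.498%, background 16.6%). Of the 7, 5 lay within the first 9 nt after 5.8S: positions 3021, 3023, 3024, 3027 and 3028. The others were 3054 and 3176. The libraries did not overlap at 18 members that were lower in late log (8.96%, background 29.5%) and at 1 that was higher (0.498%, background 21.4%). The median log2 change was -0.34 over the members and -0.14 over all tested positions. Without mid log replicate 1, 23 members (11.5%) were higher and 9 (4.5%) lower, against 21% higher and 23.5% lower over the repeat, and 8 of these 32 had been called with it. Among the 23 were position 3053 (log2 change 1.11, adjusted p = 0.000500) and position 3104 (1.52, adjusted p = 6.34e-05). The balance of lower and higher calls thus depended on that library, while the 8 positions called with it, 3054, 3153 and 3176 among them, were called without it too.

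**Figure D5:**
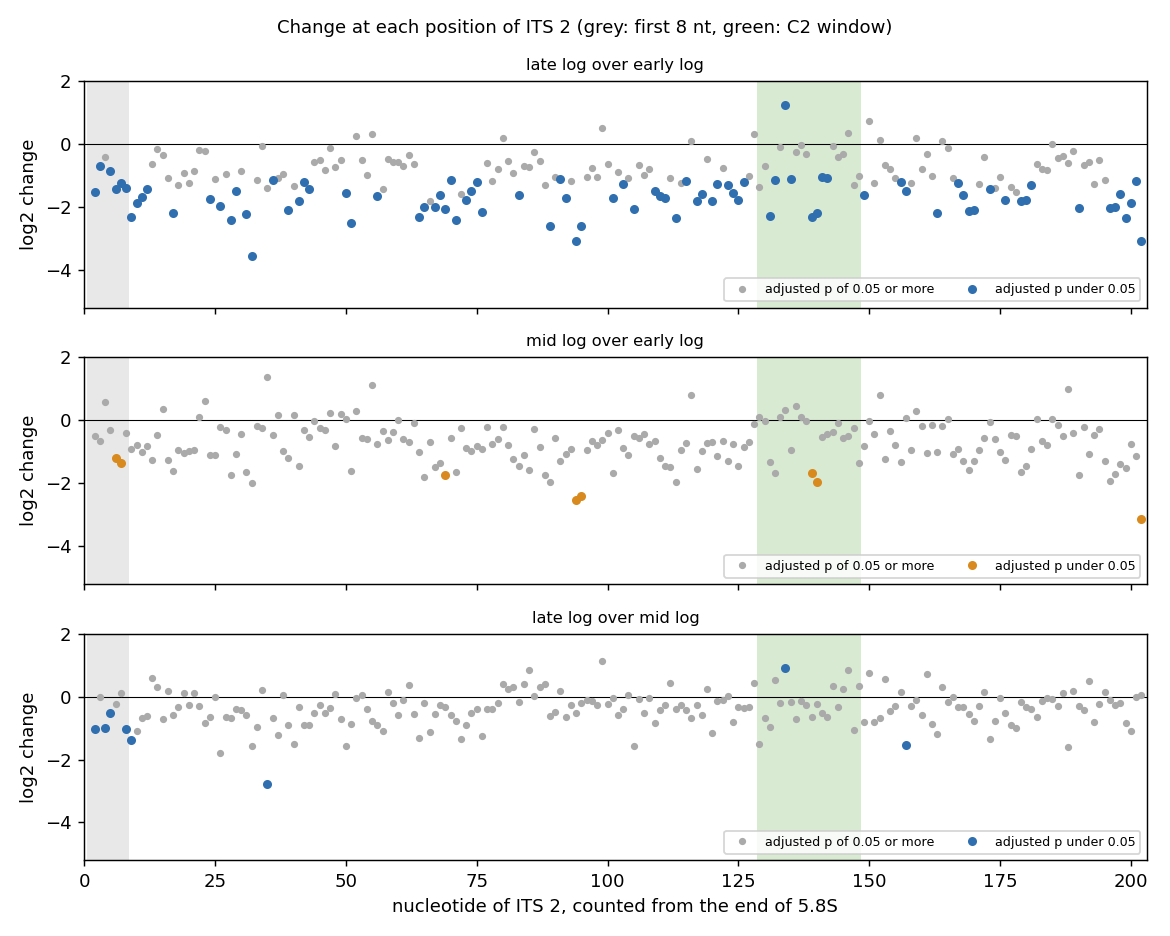
Log2 change at each tested position of ITS 2 in the 3 comparisons, by nucleotide of ITS 2, with coloured points for an adjusted p under 0.05 (limma) and grey points for the others. In late over early log 86 points are called below 0 and 1 above, and in late over mid log 5 of the 7 called below 0 lie at nt 2 to 9.

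Bases at the 3′ end were compared beyond the 6S extension. In early, mid and late log A held 38.9% ± 2.94, 29.7% ± 1.54 and 29.9% ± 0.351 of the reads there (SD, n = 3), and made up 23.2% of these positions. U held 28.1% ± 1.11, 33.9% ± 2.25 and 34.3% ± 0.745 and made up 39.2% of the positions, so it was below its share of positions in each subphase. G held 23.8% ± 1.35, 23.1% ± 1.32 and 25.2% ± 1.23, and C held 9.24% ± 1.19, 13.4% ± 0.498 and 10.7% ± 1.03. The peaks at 3051, 3053, 3136, 3158 and 3221 are A positions.

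In each of the long runs of U the last U was above the first in 8 of 9 libraries. In the run of 8 U at positions 3097 to 3104 (nt 78 to 85) the last U was the highest in 8 of 9 libraries, with means of 55.8, 22.1 and 32.5 RPM in early, mid and late log, against 28.2, 20.6 and 11.7 RPM at the first U. In the run of 7 U at 3182 to 3188 (nt 163 to 169) the last U was the highest in 6 of 9 libraries, with means of 29.2, 11.4 and 5.76 RPM, against 11.9, 6.35 and 2.51 RPM at the first.

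The order of the members by level was similar among libraries. Spearman's rho over the 202 members was 0.698 to 0.832 within early log, 0.901 to 0.937 within mid log and 0.808 to 0.869 within late log. Between subphases it averaged 0.772 for mid and early log, 0.788 for late and mid log and 0.699 for late and early log. The points are neighbouring positions of 1 transcript and share library and depth, so no p is given. Although the share of ITS 2 in mid log replicate 1 (0.946%) lay in the early log range, this library ranked the members most like mid log replicate 2 (rho 0.937), while its rho with the early log libraries was 0.718, 0.882 and 0.785.

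The 30 nt next to 25S, which are no members, held means of 0.0589%, 0.0379% and 0.0263% of the repeat reads in early, mid and late log (n = 3). Late log lay 1.14 log2 units below early log there, with no overlap, and 0.71 below within run c.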

How the data were processed

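Per the study's methods, reads were freed of duplicates (Fqtrim), trimmed (Cutadapt 3.4), aligned by the authors to R64 with STAR 2.7.3a and counted per strand by their 5′ ends, which mark RNA 3′ ends, with BEDTools 2.28.0. The RPM values that the authors deposited are reads per 1000000 reads on the repeat up to the terminator at position 6739. The tables also hold the authors' p-values and ratios, which were not used. Libraries were matched to columns through the sample descriptions, and values shared by 2 tables were equal. Dividing by the smallest value gave whole reads (within 0.01) at 99.9% to 100% of positions.

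Positions averaging 1 RPM or more were compared with limma 3.58.1 (eBayes with trend, R 4.3.3) on log2(RPM + 1), a scale that understates changes of low positions, with Benjamini-Hochberg adjustment at 0.05 over the whole repeat. The script was tested on simulated reads, drawn for each comparison from a common profile with planted changes. These reads held no shift of a whole library, such as that of mid log replicate 1, so they cannot vouch for the calls. Named were the highest position of each stretch, the peaks, the 10 highest members, and up to 3 called, non-overlapping positions per comparison and direction. edgeR 4.0.16 and DESeq2 1.42.0 on the recovered reads were alternatives. Members, stretches and rules were chosen with earlier results of these data known.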

Additional observations from a re-analysis of the deposited data

How the results depend on the processing

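The count for late over early log (87) was 53 with a median log ratio of 0, 31 with libraries scaled to the spacer sum, 46 with the run as a term, and 52 to 137 when 1 library was left out, with the lowest count without late log replicate 3, 54 without late log replicate 1 and the highest without early log replicate 1. edgeR gave 59 and DESeq2 62. The share called lower over the repeat moved too. It was 35.7% in the main fit, 22.7% without late log replicate 3 and 25.7% without late log replicate 1. Without early log replicate 1 it was 45.7%, and it was 22.2% in edgeR and 21% in DESeq2. The count for mid over early log (8) was 24 with all 9 libraries in one fit, 3 in edgeR and 0 to 70 when 1 library was left out, with 4, 1 and 1 without early log replicates 1, 2 and 3. Here the share called lower over the repeat was 12.7% in the main fit, 21.4% with all 9 libraries and 5.08% in edgeR. It was 16.5%, 4.44% and 4.91% without early log replicates 1, 2 and 3. For late over mid log the count (8) was 14 with libraries scaled to the spacer sum (10 higher), 15 in DESeq2 and 4 to 32 when 1 library was left out, with 15 without mid log replicate 3 and 4, 4 and 5 without late log replicates 1, 2 and 3. Over the repeat 22.2% were lower and 16.6% higher in the main fit, and 3.38% and 28.1% with the spacer sum. DESeq2 called 18.3% lower, and 21.8% were lower without mid log replicate 3. Without late log replicates 1, 2 and 3 the share was 19.2%, 17.5% and 16.8% lower. The other alternatives kept each count within 1.5 times, except the replicate block. With the replicate number as a block the counts were 86 for late over early log, 4 for mid over early log and 11 for late over mid log. The shares called lower over the repeat were then 36.9%, 3.14% and 21.7%. The deviations of same-numbered libraries from the means of their subphases correlated with r of -0.47 to 0.36. With 3 libraries in each mean, this check cannot decide whether the numbers pair the libraries.

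The log2 difference of the ITS 2 share for late over early log (-1.28) was -1.50 without the first 30 nt and -0.051 as a share of spacer reads, where mid over early log was -0.11 and late over mid log reversed to 0.056. When 1 library was left out, the 3 differences were -1.39 to -1.21, -1.11 to -0.49 and -0.80 to -0.17. Scaled to the spacer sum, the change in late over early log reversed to 0.54 at position 3022 and to 0.37 at position 3024, and that in late over mid log at position 3024 to 0.10. The same scaling ended the late over early log calls at positions 3021, 3025, 3026, 3043, 3136, 3176 and 3198, the mid over early log calls at 3025, 3026 and 3158, and the late over mid log calls at 3021, 3023, 3028 and 3176. Of 30 calls at named positions, 8 held under each alternative that could be run. The causes were not tested. A peak threshold of 3 times the median gave 10, 7 and 7 peaks in early, mid and late log. The C2 window held 11.7%, 9.90% and 10.3% of ITS 2 reads in early, mid and late log, and 7.88%, 6.96% and 7.65% with 5 nt to each side. Early log replicate 3, the shallowest library, had 7 members at 0 and limits statements on low positions.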
